A study of Mus musculus with 6 samples.

Results

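Complement components and their regulators were followed in the distal jejunum of mice lacking Hnf4a in the intestinal epithelium. The set holds 9 genes: C2, C3, C4b, Cfb, Cfi, Serping1, C1qa, C1qb and Cd55. A gene was taken as measured when the platform annotation gave a probe set exactly 1 symbol, equal to that gene. The probe set with the highest mean over all 6 arrays stood for the gene, a choice that did not use the groups. By this rule 7 of the 9 genes were measured, of 18193 genes on the arrays. C3 was not analysed here. The probe set listed for C4b, 1418021_at, is annotated to both C4a and C4b, so it gives no value to either gene and is described apart.

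The mutants were 3 animals in which Hnf4a was deleted by Cre recombinase under a 12.4-kb Villin promoter fragment, which is active in intestinal epithelium. They were compared with 3 control littermates. All 6 mice were killed at 7 months of age after ketamine and xylazine. All carry the strain label B6.129X1(FVB)-Hnf4atm1.1Gonz/J, a floxed Hnf4a allele, and the labels do not say whether the controls carried Cre. RNA came from biopsies of total jejunum and each animal had its own Affymetrix array, so epithelium, stroma, muscle and immune cells were measured together.

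Complement is a cascade of plasma and cell-surface proteins that tags microbes and damaged cells. The C1q complex recognises its target and, through the proteases C1r and C1s, cleaves C4 and C2, which form the convertase of the classical pathway. In the alternative pathway factor B takes the place of C2. Serping1, factor I and Cd55 restrain the cascade at successive steps. Most plasma complement is made in liver, while C1q comes mainly from macrophages, and gut epithelial and stromal cells also transcribe complement genes.

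Hnf4a itself, a nuclear receptor gene, read 8.83, 8.83 and 9.82 in mutants 1, 2 and 3, against 11.82, 11.76 and 11.57 in controls 1, 2 and 3 (log2 signal). It fell by 2.56 ± 0.25 (log2, SE; limma's moderated test, adjusted p = 0.00756), and without control 2 the fall was no longer past the threshold of 0.05 (adjusted p = 0.0506). Epithelial markers were high on every array, with list means of 12.37 to 12.69 in mutants and 12.42 to 12.47 in controls. Of these 9 markers, 2 were higher with an unadjusted limma p under 0.05, against 5.24 percent of all genes. Of 4 liver markers, Alb, Ahsg and Fgb lay below the median probe set of 3.96 on every array. The remaining one, Ttr, named after its values were seen, read 5.23, 4.78 and 5.15 in mutants, against 5.70, 5.98 and 5.91 in controls (limma adjusted p = 0.0702). Some arrays stood apart. Pancreatic acinar markers averaged 7.92 in control 3, against 4.15 to 4.31 in mutants and 4.13 to 4.18 in the other controls. Fat markers averaged 8.18 in mutant 2, against 6.41 and 6.60 in the other mutants and 6.61 to 6.76 in controls. Y-linked Eif2s3y was above background only in mutant 3 and control 1, at 6.53 and 6.85. Of 18193 genes, 96 passed the test, 36 higher and 60 lower, which is 0.528 percent. None of the 108 measured genes on 13 marker and response lists was among them. Before adjustment, 0 genes of the fat, acinar, smooth muscle, endothelium and sex-linked lists had a limma p under 0.05, and the counts for the lists set beside complement genes are given there.

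C2, the protease of the classical and lectin convertase, was the 1 gene of the 7 that passed. Its log2 signal was 8.48, 8.12 and 7.82 in mutants 1, 2 and 3, against 6.67, 6.31 and 6.09 in controls 1, 2 and 3. Every mutant lay above every control, as in 6.93 percent of all genes, and the lowest mutant exceeded the highest control by more than the range within either group. C2 averaged 8.14 ± 0.33 in mutants and 6.36 ± 0.29 in controls (SD, n = 3 each). It rose 3.44-fold, a log2 difference of 1.78 ± 0.20 (SE, 95% interval 1.32 to 2.25, limma adjusted p = 0.0134). The count of 1 riser among 7 stands beside 0.198 percent of all genes called higher, but the set was assembled with results of this contrast known, so nothing is read from it. In whole tissue, a change in the number of cells of a type and a change in RNA per cell cannot be told apart, here or in the values that follow.

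**Figure D1:**
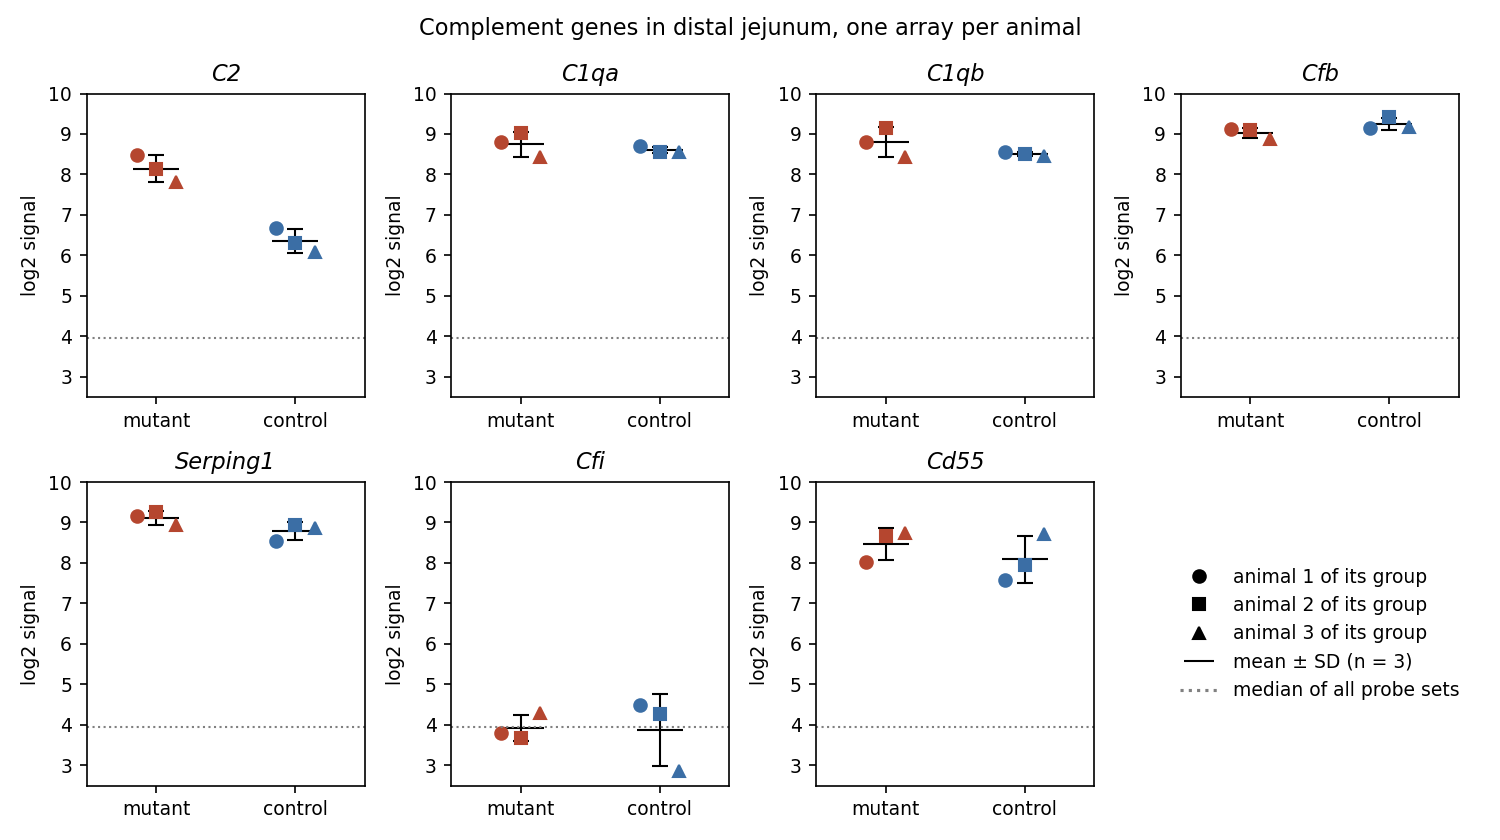
Log2 signal (y axis) of the 7 measured complement genes in mutant and control jejunum, 1 point per animal, with mean and SD (n = 3); the dotted line is the median of all probe sets, 3.96. C2 separates the groups by 1.78 on the log2 scale, whereas the ranges of C1qa, C1qb, Serping1, Cfi and Cd55 overlap and Cfb lies slightly lower in mutants without passing the test.

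The other C2 probe sets gave the same direction. Probe set 1416051_at read 8.12, 7.86 and 7.62 in mutants, against 6.60, 6.27 and 5.87 in controls. Probe set 1441912_x_at read 8.01, 7.66 and 7.85 in mutants, against 6.51, 6.59 and 6.31 in controls. Neither pair of groups overlapped. With p-values adjusted over every probe set, the differences of 1.62 ± 0.20 and 1.37 ± 0.13 (log2, SE) had limma adjusted p-values of 0.0337 and 0.0104, and that of the brightest probe set, 1457664_x_at, was 0.0219. With each array left out and the same adjustment, 1416051_at passed in 2 of 6 fits, 1441912_x_at in 4 and 1457664_x_at in 3. Their limma adjusted p-values rose to 0.159, 0.0819 and 0.139. The suffix x_at marks probe sets that may also bind related transcripts. 1416051_at does not carry it.

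The size of the C2 difference was steadier than its call. With each array left out in turn it lay between 1.61 and 1.94 (log2), but the call was lost without mutant 2 (adjusted p = 0.0627), control 2 (adjusted p = 0.0692) or control 3 (adjusted p = 0.0809). Without mutant 2 and control 3 together, the arrays with fat and acinar transcripts, the difference was 1.66 and limma's adjusted p was 0.269.

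Interferon-induced and inflammatory transcripts were measured beside C2, because complement genes are known targets of these signals. The mean of 18 interferon-induced genes was 7.51, 7.73 and 7.87 in mutants 1, 2 and 3, against 7.38, 6.36 and 6.78 in controls 1, 2 and 3. Of these genes 0 passed, 11 had a limma p under 0.05 before adjustment, all higher, and in 7 all mutants lay above all controls. Among all genes, 5.24 percent had such a p and were higher, and 6.93 percent had all mutants above all controls. The lists were chosen with earlier results known, so nothing is read from these counts. Within a group, the interferon mean was ordered differently from C2. Mutant 1 had the highest C2 and the lowest interferon mean of the mutants, while control 1 was the highest control for both. The mean of 10 acute phase and NF-kB genes was 5.29 to 5.71 in mutants and 5.10 to 5.22 in controls, with 0 past the test and 4 with an unadjusted limma p under 0.05, all higher. The part of either response in the C2 difference was not tested.

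Cfb, the alternative pathway counterpart of C2, showed no such difference. The RefSeq table of assembly GRCm38.p6 places Cfb and C2 on chromosome 17, with 1 microRNA gene, Mir6972, listed between them. Cfb read 9.11, 9.09 and 8.89 in mutants 1, 2 and 3, against 9.15, 9.41 and 9.17 in controls 1, 2 and 3. All mutants lay below all controls, yet mutant 1 and control 1 were only narrowly apart. The difference was -0.21 ± 0.12 (log2, SE, 95% interval -0.49 to 0.06) and was not past limma's test (adjusted p = 0.542). Among all genes, 17.1 percent had groups that did not overlap.

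**Figure D2:**
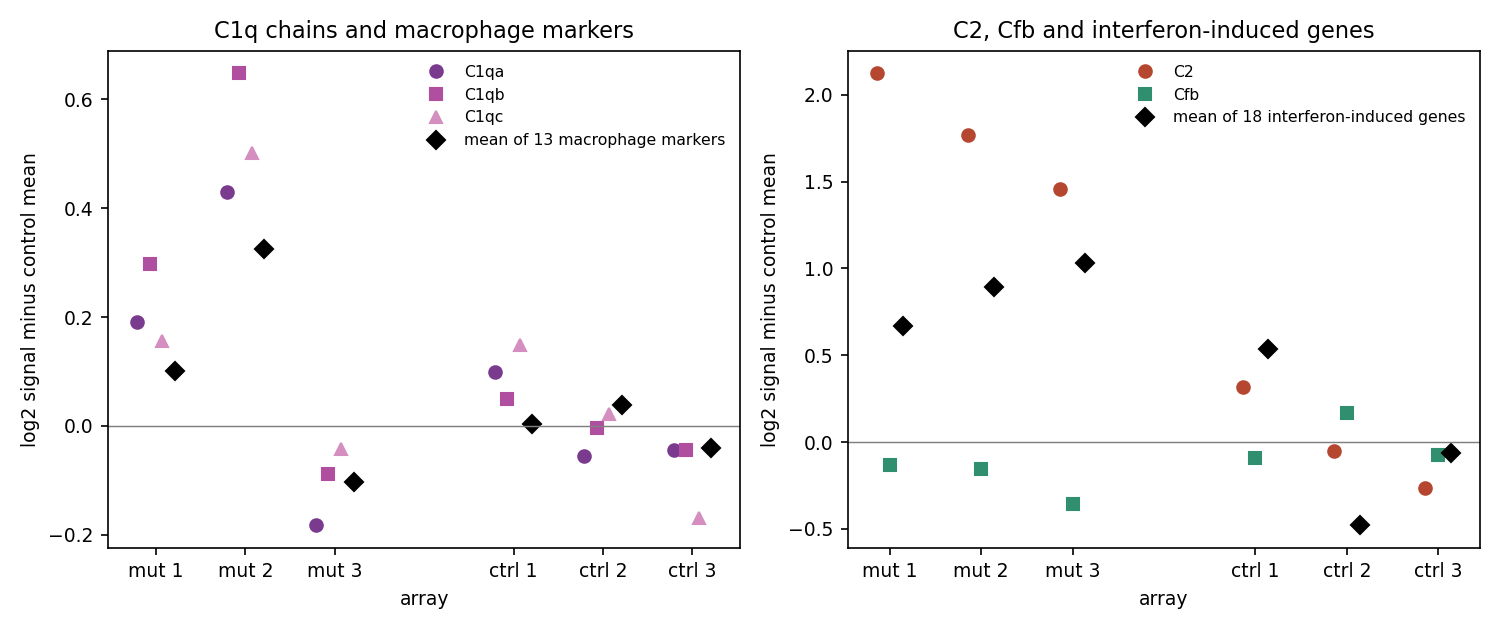
Log2 signal of each array minus the mean of the 3 controls (y axis), by array (x axis); points are genes and diamonds are list means. Left, the C1q chains and the macrophage marker mean are highest in mutant 2. C1qa, C1qb and the marker mean are lowest in mutant 3, and C1qc is lowest in control 3. Right, C2 is high in all mutants, Cfb is not, and the interferon-induced mean of control 1 lies close to that of the mutants.

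C1qa and C1qb encode chains of C1q, the recognition molecule of the classical pathway, and C1qc encodes the remaining chain. In the RefSeq table the genes lie side by side on chromosome 4 with none listed between them. C1qa read 8.80, 9.04 and 8.42 in mutants 1, 2 and 3, against 8.70, 8.55 and 8.56 in controls 1, 2 and 3. C1qb read 8.81, 9.16 and 8.42 in mutants, against 8.56, 8.50 and 8.46 in controls. For both chosen probe sets mutant 2 was the highest array and mutant 3 the lowest, with all controls between them, so the groups overlapped.

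Neither chain passed the test. The difference was 0.15 ± 0.16 for C1qa (log2, SE, 95% interval -0.22 to 0.51, limma adjusted p = 0.79). For C1qb it was 0.29 ± 0.18 (log2, SE, 95% interval -0.12 to 0.69, limma adjusted p = 0.589). Mutants were more spread than controls, with SDs of 0.31 and 0.09 for C1qa and of 0.37 and 0.05 for C1qb (n = 3 each). C1qc, not one of the 9 genes, gave 8.16, 8.51 and 7.96 in mutants, against 8.16, 8.03 and 7.84 in controls. It was again highest in mutant 2, but lowest in control 3. With each array left out the difference ranged from 0.0041 to 0.31 for C1qa and from 0.11 to 0.47 for C1qb (log2). Without mutant 2 and control 3 it was -0.018 for C1qa and 0.08 for C1qb (log2).

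Macrophage markers were set beside these values. The mean of 13 measured markers was 7.21, 7.44 and 7.01 in mutants 1, 2 and 3, against 7.12, 7.15 and 7.07 in controls 1, 2 and 3. The highest and the lowest of these means fell on mutant 2 and mutant 3, the same arrays as for C1qa and C1qb. The place of mutant 3 as lowest rests on Mertk, a marker named after its values were seen. Mertk read 7.74, 7.81 and 6.79 in mutants 1, 2 and 3, against 8.35, 8.61 and 8.70 in controls 1, 2 and 3. None of the 13 passed, with 3 higher and 2 lower with an unadjusted limma p under 0.05, and all 13 averaged above the median probe set. Among all genes, 12.1 percent had such a p in either direction. The part of macrophage content in the C1q values was not tested.

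The other C1qb probe sets spread more widely between the groups. Probe set 1437726_x_at read 8.84, 8.63 and 8.10 in mutants, against 7.96, 7.94 and 7.90 in controls, so that its groups did not overlap. Its difference was 0.59 ± 0.18 (log2, SE, limma adjusted p over every probe set = 0.324). Probe set 1434366_x_at read 7.89, 8.004 and 7.41 in mutants, against 7.46, 7.36 and 7.36 in controls, a difference of 0.37 ± 0.16 (log2, SE, limma adjusted p = 0.492). Mutant 1 was the highest array for 1437726_x_at and mutant 2 for 1434366_x_at. Neither passed, and both carry the x_at suffix.

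The C1qb promoter is shown as the sequence of a C1q chain gene, for the motif search that follows. Only C1qb was searched, and the promoter set used held no sequence for C2. The sequence is the 250 bases before the RefSeq start site, chr4:136886201-136886450 on the minus strand of GRCm38.p6, written 5′ to 3′ along the gene. Capitals mark a match to the core AGGAAGT of ETS factors, the family of the macrophage regulator PU.1, on the opposite strand and beginning at position -53 from the start site.
C1qb promoter: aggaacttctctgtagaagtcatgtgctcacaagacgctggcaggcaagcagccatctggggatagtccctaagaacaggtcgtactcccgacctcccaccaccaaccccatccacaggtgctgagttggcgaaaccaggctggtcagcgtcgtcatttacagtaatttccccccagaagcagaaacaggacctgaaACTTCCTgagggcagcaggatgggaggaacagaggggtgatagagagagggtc
On both strands, this core was present in 7.69 percent of 32851 RefSeq promoter windows of the same length. It was searched after the longer core GAGGAAGT, which contains it, had given no match (2.44 percent of windows). The window also held no interferon-stimulated response element (2.98 percent), no TTCNNNGAA, the gamma-activated site (7.02 percent), and no CAAAGTCCA, an HNF4 motif (0.384 percent). These are matches of letters and do not show binding.

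Serping1 encodes the C1 inhibitor, which stops C1r and C1s. It read 9.15, 9.26 and 8.94 in mutants 1, 2 and 3, against 8.54, 8.94 and 8.88 in controls 1, 2 and 3. Mutants 1 and 2 lay above all controls, while mutant 3 lay just under control 2. The difference was 0.33 ± 0.14 (log2, SE, 95% interval 0.0026 to 0.66), with an unadjusted p of 0.0486 and an adjusted p of 0.409 in limma's test. It was 0.21 to 0.42 with each array left out, on the same side of zero each time. Of all genes, 12.1 percent had an unadjusted p under 0.05. Fibroblast markers, 10 in number, averaged 8.16 to 8.50 in mutants and 8.07 to 8.29 in controls, and 0 passed, with 1 with an unadjusted limma p under 0.05. Their part in the Serping1 value was not tested.

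Cfi encodes factor I, the protease that inactivates the tagged products of the cascade. It read 3.80, 3.68 and 4.29 in mutants 1, 2 and 3, against 4.50, 4.28 and 2.86 in controls 1, 2 and 3. These values lay around the median probe set, where signal is close to background, and control 3 was the lowest array. The difference of 0.04 ± 0.40 (log2, SE, 95% interval -0.87 to 0.96, limma adjusted p = 0.981) changed sign without mutant 3 (-0.14) or control 3 (-0.47). The arrays therefore give no direction for Cfi. The other 6 genes lay above the array median in every sample.

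Cd55 encodes decay-accelerating factor, a membrane protein that takes convertases apart. It read 8.01, 8.66 and 8.74 in mutants 1, 2 and 3, against 7.58, 7.95 and 8.72 in controls 1, 2 and 3. Control 3 lay level with the highest mutants, so the groups overlapped. The difference was 0.38 ± 0.30 (log2, SE, 95% interval -0.31 to 1.08, limma adjusted p = 0.693), and with each array left out it ranged from 0.13 without control 1 to 0.70 without control 3 (log2, limma adjusted p = 0.936 and 0.542).

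Its other probe sets lay further apart. Probe set 1418762_at read 6.33, 7.09 and 7.58 in mutants, against 6.07, 6.04 and 6.49 in controls. Probe set 1443906_at read 4.45, 4.63 and 4.94 in mutants, against 3.31, 4.05 and 4.17 in controls, not far from the median probe set. The groups overlapped for the first and not for the second. Their differences of 0.80 ± 0.29 and 0.83 ± 0.23 (log2, SE) did not pass (limma adjusted p over every probe set 0.427 and 0.289). Neither passed with any 1 array left out.

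The shared probe set 1418021_at, annotated to C4a and C4b, read 8.59, 8.32 and 8.37 in mutants 1, 2 and 3, against 7.46, 7.52 and 7.54 in controls 1, 2 and 3. The groups did not overlap, and the controls lay within a narrow range. Its difference was 0.92 ± 0.11 (log2, SE, 1.90-fold, limma adjusted p over every probe set = 0.0219). With each array left out it was 0.84 to 0.98, and the call held in 1 of 6 such fits (adjusted p up to 0.155). C4 protein is cleaved together with C2, and the copy C4a is known in mice as sex-limited protein. Mutant 3 and control 1 carried Y-linked transcripts, and the part of sex in this signal was not tested. Which copy the signal came from cannot be told apart.

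**Figure D3:**
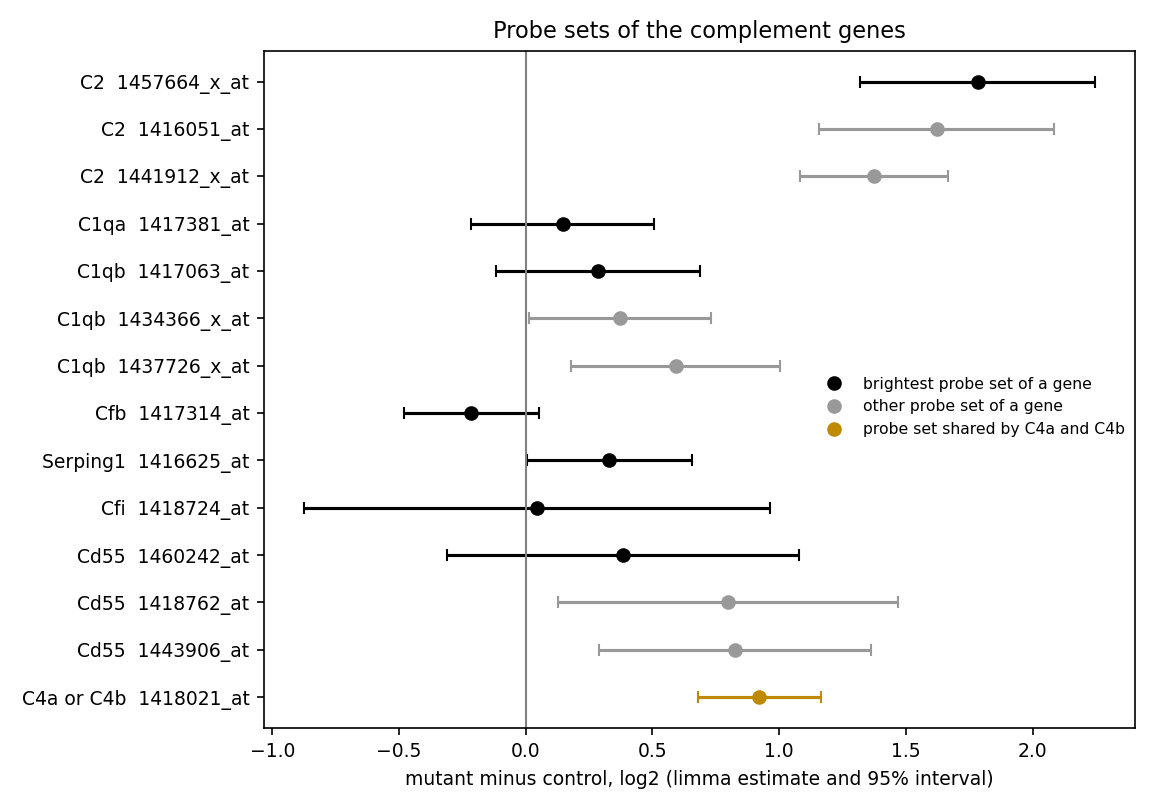
Mutant minus control difference (x axis, log2) with its 95% interval from limma fitted over every probe set, for each single-symbol probe set of the complement genes and the one shared by C4a and C4b. All C2 intervals and that of the shared probe set lie at or above 0.68, while the interval of Cfi spans -0.88 to 0.96.

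Over the 7 genes the median difference was 0.29 (log2), against -0.01 over all 18193. The mean was higher in mutants for 6 of the 7, where 46.7 percent of all genes were higher. These counts describe a set chosen with results in view.

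The rest of the pathway was read from textbook lists by role. Of 49 further complement genes, 39 were measured and 10 were not analysed here. In limma's test 0 of the 39 passed, and 5 had an unadjusted p under 0.05, all of them higher. That is 12.8 percent of the 39, near the 12.1 percent of all genes in either direction; 5.24 percent of all genes had such a p and were higher. In 5 of the 39 all mutants lay above all controls, and in 1 all lay below, together 15.4 percent against 17.1 percent of all genes. The median difference was 0.07 (log2).

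Among recognition molecules and early proteases, C1ra and C1s1, which encode the proteases of the C1 complex, differed in the direction of C2. C1ra read 6.94, 7.05 and 6.73 in mutants, against 6.41, 6.29 and 6.60 in controls. C1s1 read 6.98, 7.54 and 7.38 in mutants, against 6.66, 6.97 and 6.91 in controls. For both, every mutant lay above every control, narrowly so for C1s1. The differences were 0.47 ± 0.13 for C1ra and 0.45 ± 0.16 for C1s1 (log2, SE), and neither passed (limma adjusted p 0.19 and 0.306). Masp2, a protease of the lectin pathway, lay below the median probe set and differed by 0.10 ± 0.11 (log2, SE).

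Soluble regulators held the largest of the other differences. C4bp, a cofactor for the cleavage of C4, read 6.60, 6.45 and 6.05 in mutants 1, 2 and 3, against 5.02, 5.82 and 5.62 in controls 1, 2 and 3. Clusterin, Clu, which binds the late complex, read 8.67, 8.53 and 8.58 in mutants, against 8.43, 7.63 and 7.37 in controls. Both had mutants wholly above controls, and control 1 was the lowest array for C4bp and the highest control for Clu. Their differences were 0.88 ± 0.22 and 0.79 ± 0.24 (log2, SE), with limma adjusted p-values of 0.167 and 0.247. Without control 1 the Clu difference was 1.10 (log2) and passed limma's test (adjusted p = 0.029). With Xist signal as a covariate for sex, a setting chosen after seeing the data, C4bp passed (limma adjusted p = 0.0303). Neither gene passed in any other setting. All 4 Clu probe sets differed by 0.71 to 0.87 (log2). The other named soluble regulators, Cfhr2 and Vtn, differed by -0.21 and -0.16 (log2) at levels below the median probe set.

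Membrane regulators other than Cd55 differed by -0.25 to 0.07 (log2), and none passed. Cr1l, the rodent regulator Crry, read 8.93, 9.22 and 9.15 in mutants, against 9.04, 9.06 and 9.03 in controls, a difference of 0.06 ± 0.11 (log2, SE, 95% interval -0.19 to 0.31). Cd46 differed by -0.25 ± 0.13 (log2, SE, limma adjusted p = 0.517), and Susd4 and Csmd1 by 0.07 and -0.03 (log2). Cd46, at 3.81 in mutants and 4.06 in controls, and Csmd1, at 4.16 and 4.18, averaged near the median probe set.

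Of the 8 measured receptor genes, Itgb2 was furthest from zero. It encodes the shared beta chain of the leukocyte integrins that bind complement fragments, and read 7.14, 7.49 and 6.90 in mutants, against 6.91, 6.72 and 6.38 in controls. Mutant 3 and control 1 were level, so the groups overlapped. The difference was 0.50 ± 0.19 (log2, SE, limma adjusted p = 0.325). Markers of T cells and intraepithelial lymphocytes averaged 6.86 to 7.53 in mutants and 5.74 to 7.03 in controls. Of these 10 markers 0 passed the test and 6 had an unadjusted limma p under 0.05, all higher, against 5.24 percent of all genes. Their part in the Itgb2 value was not tested. Cr2, a complement receptor gene of B cells, C5ar1 and Itgax differed by 0.25, 0.16 and 0.12 (log2). Cr2 and C5ar1 averaged below the median probe set in both groups. B and plasma cell markers averaged 7.53 to 8.01 in mutants and 6.48 to 7.92 in controls, with 0 of 7 past the test and 1 with an unadjusted limma p under 0.05.

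Of the 6 terminal pathway genes, 2 averaged above the median probe set. The 6 measured terminal genes differed by -0.03 to 0.25 (log2), of which Hc, the mouse C5 gene, was highest at 0.25 ± 0.15 (SE), followed by C8g, C8b and C8a at 0.16, 0.13 and 0.08. Each of these named genes averaged below the median probe set in at least 1 group. Properdin, Cfp, which steadies the alternative convertase, differed by 0.29 ± 0.19 (log2, SE, limma adjusted p = 0.618).

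**Figure D4:**
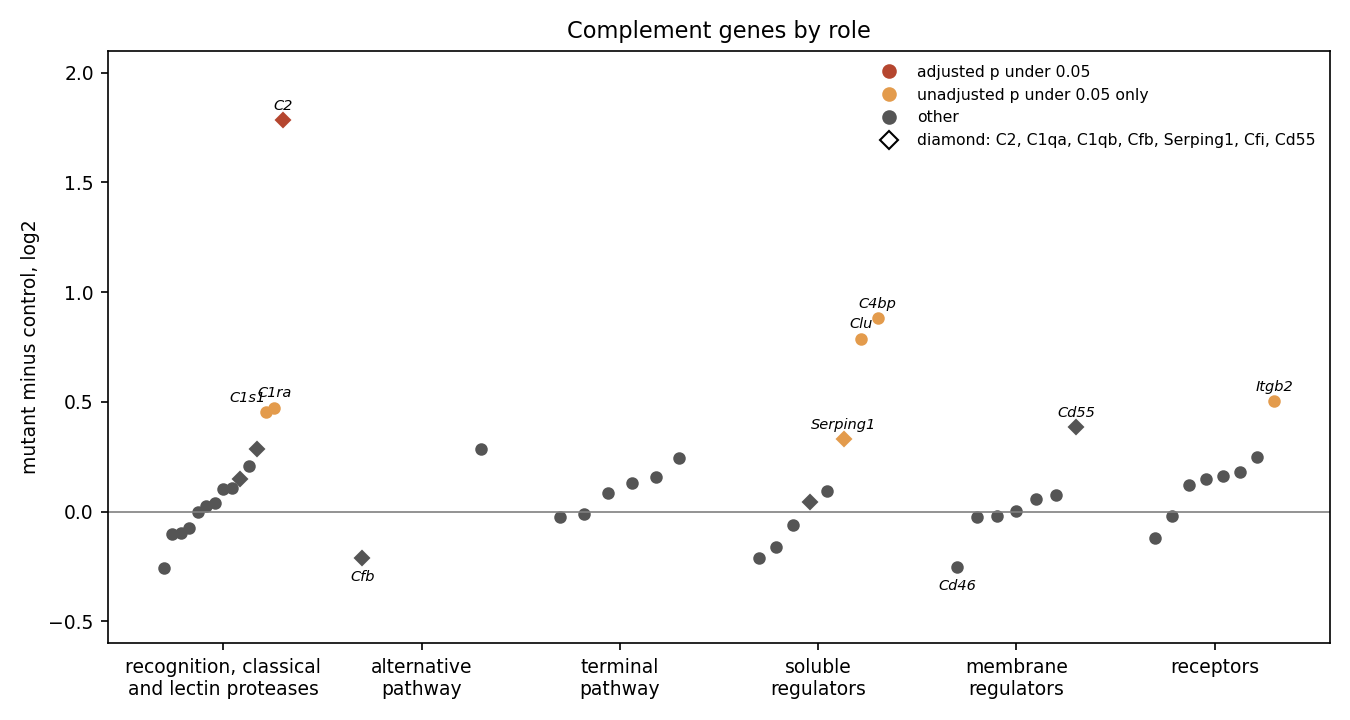
Mutant minus control difference (y axis, log2) of every measured complement gene, grouped by role (x axis), with colour for limma's p. C2 at 1.78 stands above all others, followed by C4bp at 0.88 and Clu at 0.79, and most genes lie between -0.26 and 0.50.

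The genes whose profile over the 6 arrays was closest to that of C2 were sought by the root mean square difference of centred log2 values, among genes brighter than the median gene. They were Car8 (0.22), which encodes a carbonic anhydrase-related protein, Pla2g10 (0.29), a secreted phospholipase gene, Prorp (0.38), Ckap4 (0.39) and Myl7 (0.40). All 5 were among the genes that rose in limma's test, by 1.13 to 1.57 on the log2 scale, and the measure favours genes of like difference. Car8 read 8.68, 8.33 and 8.25 in mutants, against 6.84, 7.07 and 6.64 in controls, so that mutant 1 was its highest array, as for C2. For C1qa the closest were Tmem131l (0.04), Plekhj1, Yipf4, Cbr4 and Usp49 (each 0.07), with differences of 0.06 to 0.18 (log2), none past the test.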

How the data were processed

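Total RNA from 6 jejunum samples was hybridised to Affymetrix arrays, per the labels. The values are log2 signals deposited by the authors, 1 per probe set and array; their range (1.80 to 14.5) gave the scale, while for background correction, summarisation, normalisation and genome build no method is stated in the labels. Of 45101 probe sets, 64 control probe sets were left out; 34945 had 1 symbol in the platform annotation, 932 several and 9160 none listed. The brightest probe set stood for each of 18193 genes. Array medians were 3.93 to 3.98. Groups were compared with limma 3.58.1 in R 4.3.3 (lmFit, eBayes, group as the only term, two-sided, Benjamini-Hochberg over all genes, threshold 0.05), tested on simulated data. The number of arrays limits the precision. Named genes were Hnf4a, all 7 measured genes, up to 4 other genes of each of 6 complement lists by smallest p, and 5 of like profile for C2 and for C1qa. Members and lists were chosen with earlier results of these data known. Promoter sequence is RefSeq's (GRCm38.p6). Same-numbered arrays of the groups did not deviate together (correlations 0.07, 0.07 and -0.02), so numbers were not treated as pairs.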

Additional observations from a re-analysis of the deposited data

How the results depend on the processing

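The alternatives were quantile normalisation, median centring, leaving out dim probe sets, averaging over probe sets of a gene, adjustment over every probe set, trend and robust variances, a replicate block, and each array left out, with 2 more chosen after seeing the data (mutant 2 and control 3 left out together, and Xist signal as a covariate). C2 kept its direction in all 15 (1.59 to 1.94, log2) and its call in 11. It was not called without mutant 2, control 2, control 3, or both mutant 2 and control 3. Cfb, Serping1, Cd55 and C1qb kept their direction in all 15 and were never past the threshold. C1qa turned to -0.018 without mutant 2 and control 3. Cfi turned to -0.34 in that setting and to -0.015 with the Xist covariate, and lay between -0.47 and 0.36 with 1 array left out; the cause was not tested. Hnf4a lay between -2.89 and -2.39 with 1 array left out, and at -2.47 without mutant 2 and control 3 (adjusted p = 0.205).

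The count of called genes, 96, was 59 with adjustment over every probe set, which tests more features, and 22 to 96 with 1 array left out. It was 4 without mutant 2 and control 3, where fewer samples remain. With the replicate block it was 62, and C2 then had an adjusted p of 0.00568; the shared numbers are not stated to pair the animals, and arrays did not always correlate best with their own number. Of the 7 complement genes, 0 to 1 was called with 1 array left out and 0 without mutant 2 and control 3. Of the other 39, 0 to 1 was called with 1 array left out and 1 with the Xist covariate. Signal near or below the median probe set limits what can be said of Cfi, Cd46, Csmd1, Cr2, C5ar1 and the terminal pathway genes named above.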
